A study of Mus musculus with 5 samples.

Results

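NKT17 cells are the subset of invariant natural killer T (iNKT) cells that makes interleukin 17, and 9 genes used to recognise them in mice are described here across sorted liver iNKT cells. The genes are Il17a, Il23r, Il1r1, Ccr6, Il17re, Tmem176a, Tmem176b, Sdc1 and Serpinb1a, chosen by name, and all 9 were found by Ensembl gene ID among the 55364 gene IDs of each count table. The libraries came from 3 mice with hepatocellular carcinoma (HCC) and 2 healthy mice, and were made by 3' mRNA sequencing of cells stained both by PBS57-loaded CD1d tetramers (PBS57 is a lipid antigen) and for the T cell receptor beta chain. All mice were wild-type male C57BL/6. The HCC mice had been injected once with 25 mg/kg diethylnitrosamine (DEN), a liver carcinogen, when 15 days old, and the healthy mice had received PBS. Livers were collected at 38 to 42 weeks. The libraries are called HCC 1, 2 and 3 and healthy 1 and 2. The tables of HCC 2 and HCC 3 carry a common number in their names, although the titles and the design count 3 diseased mice. If both came from 1 mouse, p-values would partly measure technical spread.

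iNKT cells carry a semi-invariant T cell receptor that recognises lipids presented by CD1d, and mature as subsets named after the cytokine each makes. NKT1 cells depend on the transcription factor T-bet and make interferon gamma, NKT2 cells make interleukin 4, and NKT17 cells respond to interleukin 1 and interleukin 23. In mice NKT17 cells are frequent in skin, lung and lymph nodes, whereas liver iNKT cells are mostly of the NKT1 kind.

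Tmem176a and Tmem176b supplied nearly all reads of the set and lie head to head on chromosome 6, so their promoters are shown first. Tmem176a (ENSMUSG00000023367, chromosome 6, 48840919 to 48847071, plus strand, mm10) and Tmem176b (ENSMUSG00000029810, chromosome 6, 48833818 to 48841496, minus strand) overlap by 578 bases at their 5' ends. Their 3' ends, where 3' mRNA reads fall, lie 13.3 kilobases apart. The RefSeq windows below (GRCm38.p6, from 250 bases before to 50 after a start site, the first window listed for each gene) are chr6:48841233-48841532 on the plus strand for Tmem176a and chr6:48841088-48841387 on the minus strand for Tmem176b. Capitals mark the 155 bases that both windows share, which read as reverse complements because each line runs 5' to 3' on the strand of its gene. The start sites are 346 bases apart.
Tmem176a: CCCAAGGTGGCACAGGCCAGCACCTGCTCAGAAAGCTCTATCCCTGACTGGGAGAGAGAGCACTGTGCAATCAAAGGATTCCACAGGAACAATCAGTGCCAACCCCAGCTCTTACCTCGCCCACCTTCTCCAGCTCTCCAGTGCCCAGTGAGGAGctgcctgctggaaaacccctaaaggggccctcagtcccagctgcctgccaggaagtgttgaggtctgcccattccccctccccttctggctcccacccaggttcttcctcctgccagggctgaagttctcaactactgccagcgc
Tmem176b: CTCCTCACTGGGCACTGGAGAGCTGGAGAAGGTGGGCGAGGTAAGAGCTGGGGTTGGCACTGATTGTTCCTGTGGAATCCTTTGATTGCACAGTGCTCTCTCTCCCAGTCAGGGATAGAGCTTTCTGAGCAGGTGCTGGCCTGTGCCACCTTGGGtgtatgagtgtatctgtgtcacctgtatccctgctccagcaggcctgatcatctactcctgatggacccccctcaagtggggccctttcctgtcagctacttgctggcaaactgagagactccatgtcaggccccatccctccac

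AGGTCA is a half-site bound by many nuclear receptors, Rora among them, and these letters were searched on both strands of the member windows, with no other motif searched. RefSeq windows were present for 8 of the 9 genes, and Serpinb1a had none in the table. The motif was present in 3 of the 13 member windows, 1 each of Il17a, Il23r and Ccr6, and in 16.3% of the 32851 windows of the whole table. No window of Tmem176a, Tmem176b, Il1r1, Sdc1 or Il17re held these letters, which says nothing about whether such a factor binds there. The matches are shown with up to 20 bases on either side, on the strand of the gene, with the motif or its reverse complement TGACCT in capitals. They lie at chr1:20730765-20730810 on the plus strand (Il17a), chr6:67491896-67491941 and chr6:67492059-67492104 on the minus strand (Il23r) and chr17:8235979-8236024 on the plus strand (Ccr6).
Il17a: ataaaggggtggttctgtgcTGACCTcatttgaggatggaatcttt
Il23r, nearer the start site: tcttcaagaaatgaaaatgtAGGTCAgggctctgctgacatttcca
Il23r, farther from the start site: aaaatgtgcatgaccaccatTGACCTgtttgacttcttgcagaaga
Ccr6: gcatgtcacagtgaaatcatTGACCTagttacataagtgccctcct

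Total counts were 1837653, 1718452 and 1883979 in HCC 1, 2 and 3, and 2224356 and 1821863 in healthy 1 and 2. Levels are in CPM, the count of a gene scaled by the total of its own table, and were not divided by gene length because a 3' library gives reads from 1 end of a transcript. A count of 0 was taken to allow up to 3 counts per library, or 1.63, 1.75 and 1.59 CPM in HCC 1, 2 and 3 and 1.35 and 1.65 CPM in healthy 1 and 2. These limits and the Poisson and Wilson intervals cover counting error only, because reads and not distinct molecules were counted. In healthy 1 the lowest count above 0 among the genes named or listed below was 3, so its counts may be scaled from fewer reads. Its limit and intervals would then be too tight, and the same may hold for HCC 3. Healthy 1 stood apart, with a Pearson r of 0.767 to 0.820 with the other libraries over 8468 genes, against 0.848 to 0.903 among the others (genes are not independent replicates). It had the highest total but the fewest genes with a count, 10861 against 11822 to 13229 in the others. The part of sampling depth in this was not tested. As a check of the sort, Trac, the constant region of the T cell receptor alpha chain, was at 627, 545 and 803 CPM in HCC 1, 2 and 3 and at 488 and 672 CPM in healthy 1 and 2. Cd3e, which belongs to the CD3 complex, was at 183, 178 and 283 CPM in HCC and at 187 and 246 CPM in healthy libraries. The variable gene of the invariant chain, Trav11, had 1 read in healthy 2 and 0 elsewhere, and 3' reads rarely reach it. Zbtb16, which encodes PLZF, the factor that defines the iNKT lineage, had only 2, 2 and 0 counts in HCC 1, 2 and 3 and 3 in each healthy library. A lineage gene can thus be at or near 0 in these libraries. Klrb1c, which encodes NK1.1, was at 465, 20.9 and 333 CPM in HCC 1, 2 and 3 and at 382 and 5.49 CPM in healthy 1 and 2, so that the low libraries, HCC 2 and healthy 2, are in different groups.

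The genes that name the NKT17 subset by its cytokine and by its response to cytokines held no reads. Il17a (ENSMUSG00000025929, chromosome 1, 20730905 to 20734496), the gene of the cytokine itself, had a count of 0 in all 3 HCC and both healthy libraries. Il23r, the receptor chain that binds interleukin 23, Il1r1, the signalling receptor of interleukin 1, and Ccr6, the chemokine receptor for CCL20, likewise had 0 in all 5 libraries. Il17re, a receptor chain for interleukin 17C, had 1 count in HCC 2 and 1 in healthy 2. A count of 0 here does not show that the genes are silent. It limits the level to the values given above, which may be too low for healthy 1 and HCC 3. A count of 0 in all 5 libraries was found for 4 of the 9 NKT17 genes and for 45.0% of the 21884 protein-coding gene IDs.

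**Figure D1:**
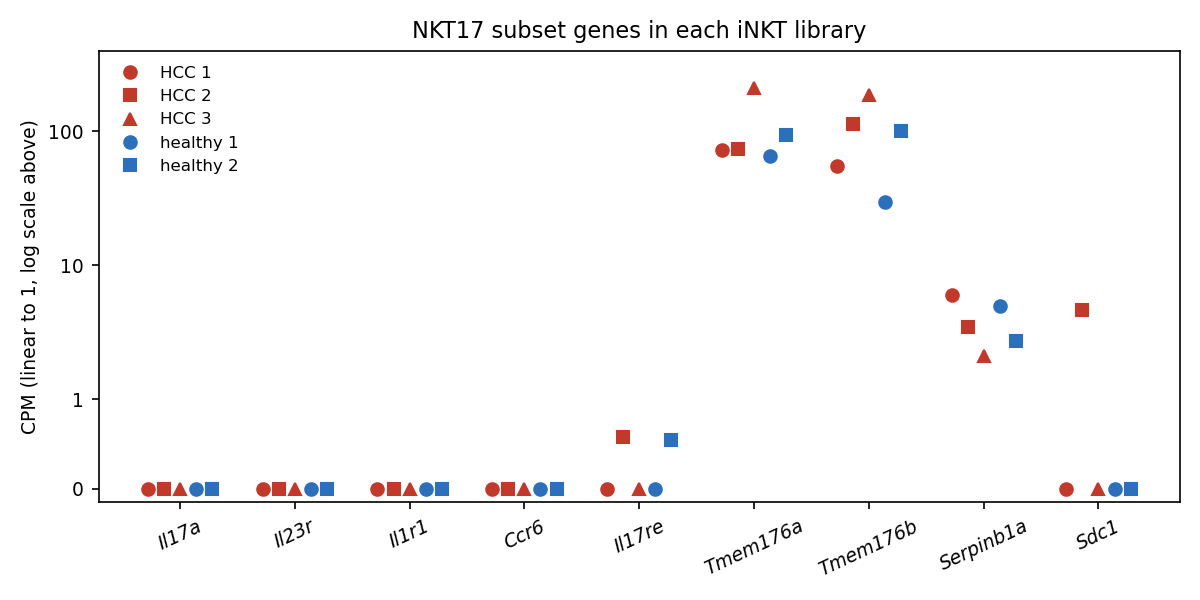
Level of each of the 9 NKT17 genes (horizontal axis) in CPM (vertical axis, linear to 1 and logarithmic above) in HCC 1, 2 and 3 (red) and healthy 1 and 2 (blue). Il17a, Il23r, Il1r1 and Ccr6 lie at 0 in every library, whereas Tmem176a and Tmem176b lie between 29.7 and 211 CPM.

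Reads of the set came almost wholly from Tmem176a and Tmem176b, related proteins with 4 membrane-spanning segments that are expressed in mouse type 17 lymphocytes. Of 1925 counts over the 9 genes and 5 libraries, 1878 (97.6%) were from this pair. The pair made up 95.5, 95.6 and 99.5% of the counts of the set in HCC 1, 2 and 3 and 95.1 and 98.3% in healthy 1 and 2. By mean CPM Tmem176a and Tmem176b were 1092nd and 1140th of the 16664 genes with any count. The summed level of the set therefore follows these 2 genes.

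Tmem176a had 134, 127 and 397 counts in HCC 1, 2 and 3 (72.9, 73.9 and 211 CPM) and 146 and 171 in healthy 1 and 2 (65.6 and 93.9 CPM). HCC 3 was the high library, and HCC 1 and 2 lay between the healthy ones, so the groups overlapped. The means were 119 ± 79.3 CPM in HCC (SD, n = 3) and 79.7 ± 20.0 CPM in healthy libraries (SD, n = 2). The log2 fold change of HCC over healthy was 0.45 (SE 0.54, 95% interval -0.76 to 1.66, edgeR adjusted p = 0.9999). It was -0.31 without HCC 3, so that 1 library set its direction.

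Tmem176b had 102, 196 and 355 counts in HCC 1, 2 and 3 (55.5, 114 and 188 CPM) and 66 and 184 in healthy 1 and 2 (29.7 and 101 CPM). Healthy 1 was the lowest and HCC 3 the highest library, while HCC 1 lay below healthy 2. The means were 119 ± 66.6 CPM in HCC (SD, n = 3) and 65.3 ± 50.4 CPM in healthy libraries (SD, n = 2). The log2 fold change was 0.78 (SE 0.60, 95% interval -0.56 to 2.12, edgeR adjusted p = 0.9999). Leaving out a library moved it to 0.22 without healthy 1, 0.23 without HCC 3 and 1.73 without healthy 2. The last had an unadjusted p of 0.0216 and an adjusted p of 0.163 in edgeR, in a fit where the single healthy library left is assumed to have the spread of the HCC libraries.

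Neither member that could be tested passed. A filter on low counts kept 8468 genes, among them Tmem176a and Tmem176b, and removed the other 7 members. Of the genes tested, edgeR called 0 in either direction when the adjusted p had to be under 0.05 (0.0% higher, 0.0% lower). Its unadjusted p was under 0.05 for 307 genes (3.63%), none of them a member. With DESeq2 8 genes passed, all higher in HCC (356 before adjustment), and with limma-voom 0 (208 before adjustment), and no member passed in either. The members' median log2 fold change was 0.61, beside 0.00 over all genes tested. Every HCC library lay above both healthy libraries for 12.8% of the genes tested and below both for 5.46%, and for 0 of the 2 tested members. The intervals of both genes include a doubling and a fall, so these libraries do not show that the levels were alike. In sorted cells read as bulk, more cells of a subset and more RNA per cell cannot be told apart.

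**Figure D2:**
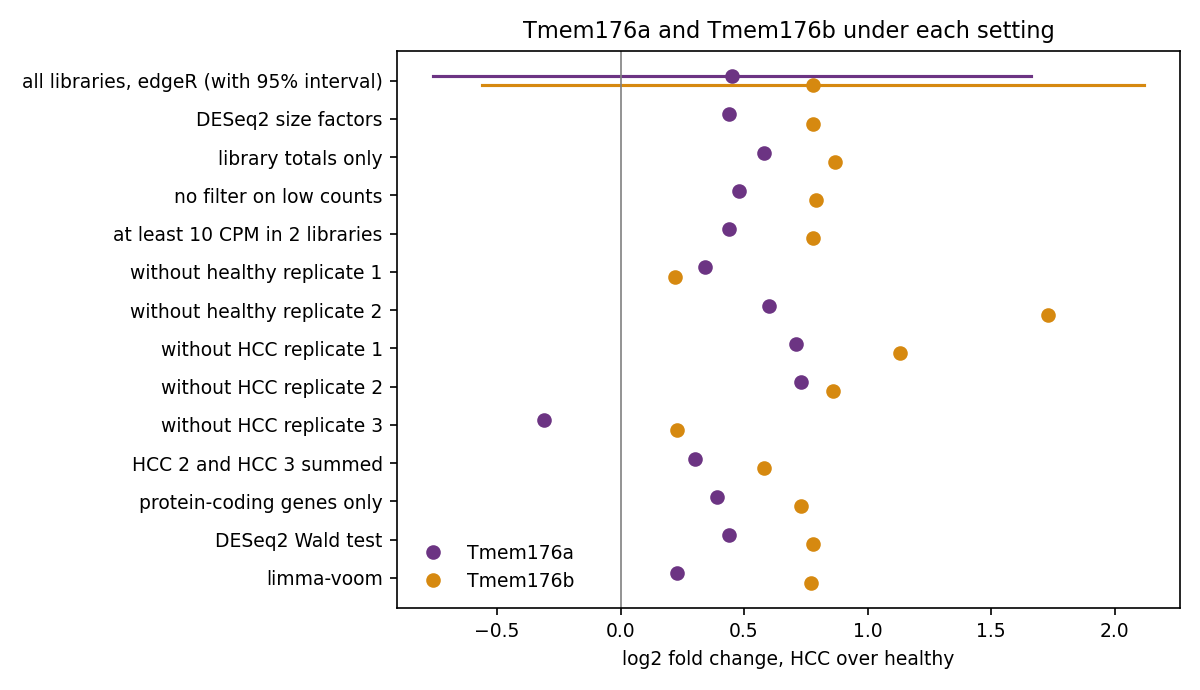
Log2 fold change of HCC over healthy (horizontal axis) for Tmem176a (purple) and Tmem176b (orange) with all libraries, where lines show the 95% interval, and under other settings (rows). Tmem176b ranges from 0.22 to 1.73, and Tmem176a falls to -0.31 without HCC 3. The setting with the replicate number as a block, where Tmem176a was also at -0.31, is not drawn.

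The pair varied together only in part. HCC 3 was highest and healthy 1 lowest for both, but healthy 2 ranked above HCC 2 for Tmem176a and under it for Tmem176b. Tmem176a made up 56.8% of the pair's counts in HCC 1 (Wilson 95% interval 50.4 to 62.9%), 39.3% in HCC 2 (34.1 to 44.7%) and 52.8% in HCC 3 (49.2 to 56.3%). In healthy 1 it made up 68.9% (62.3 to 74.7%) and in healthy 2 48.2% (43.0 to 53.4%). If the counts of healthy 1 and HCC 3 are scaled from fewer reads, the intervals of these libraries are too narrow. The highest and lowest shares were in healthy 1 and HCC 2, with intervals that do not overlap, and the groups overlapped. Of the 31-base words in the last 300 bases of annotated transcripts, 1.55% in Tmem176a and 0.0% in Tmem176b also occur in other genes, which for Tmem176a are Gabbr1 and Tmem176b itself. Whether reads were counted by strand is not known.

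**Figure D3:**
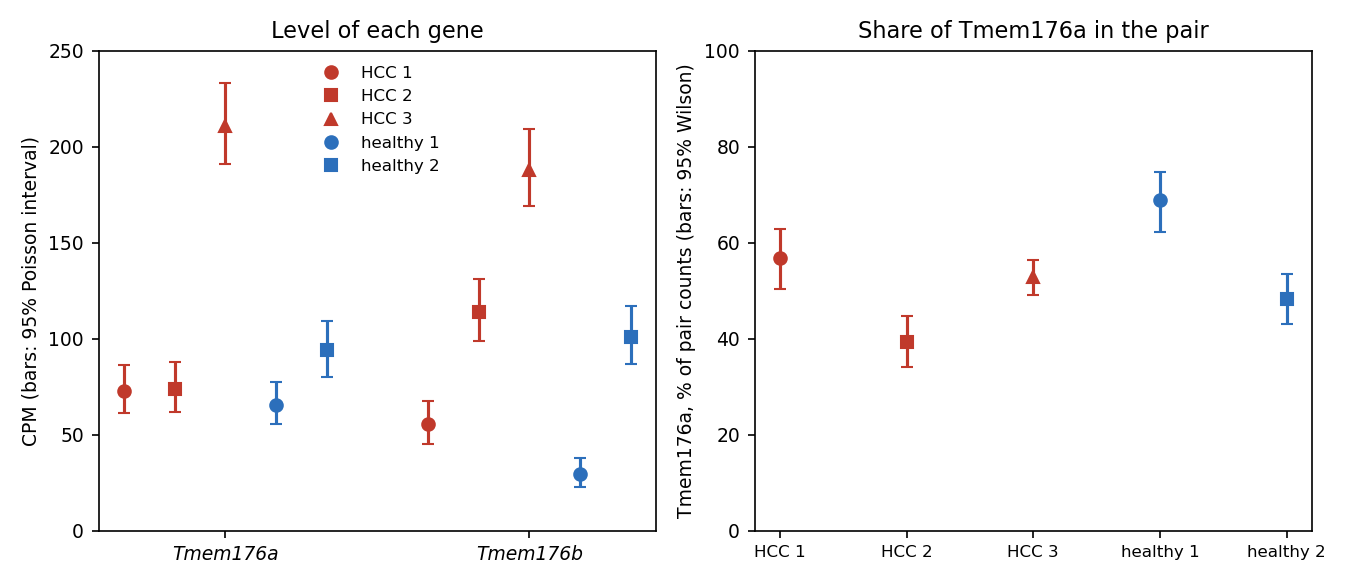
Left, CPM of Tmem176a and Tmem176b in each library with 95% Poisson intervals, HCC in red and healthy in blue. Right, Tmem176a as a percentage of the counts of the pair with 95% Wilson intervals, which ran from 39.3% in HCC 2 to 68.9% in healthy 1.

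Serpinb1a and Sdc1 held few reads. Serpinb1a, which encodes an inhibitor of neutrophil serine proteases, had 11, 6 and 4 counts in HCC 1, 2 and 3 (5.99, 3.49 and 2.12 CPM) and 11 and 5 in healthy 1 and 2 (4.95 and 2.74 CPM). It was lowest in HCC 3, where the Tmem176 pair was highest, but its Poisson interval there, 0.578 to 5.44 CPM, overlapped those of the other 4 libraries. Its means were 3.87 ± 1.96 CPM in HCC (SD, n = 3) and 3.84 ± 1.56 CPM in healthy libraries (SD, n = 2), and 14.7% of its 3' words occur in other genes. Sdc1, which encodes the heparan sulphate proteoglycan syndecan-1 (CD138), had 8 counts in HCC 2 (4.66 CPM, Poisson 95% interval 2.01 to 9.17) and 0 in the other 4 libraries. No fold is given for it, since both healthy libraries were at 0 and HCC 2 alone held its reads. The lower bound in HCC 2 lies above the 1.75 CPM that a count of 0 allows there. Its HCC mean was 1.55 CPM. The 7 members other than the pair summed to 11, 15 and 4 counts in HCC 1, 2 and 3 and to 11 and 6 in healthy 1 and 2.

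Over all 9 genes the summed level was 134, 197 and 401 CPM in HCC 1, 2 and 3 and 100.3 and 198 CPM in healthy 1 and 2. HCC 3 lay above both healthy libraries, HCC 2 was level with healthy 2, and HCC 1 lay between the healthy libraries. The means were 244 ± 139.6 CPM in HCC (SD, n = 3) and 149 ± 69.2 CPM in healthy libraries (SD, n = 2), a ratio of 1.64. Without HCC 3 the HCC mean was 166 CPM and the ratio 1.11.

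Beyond the 9 genes, the type 17 programme was followed in a list of 30 other genes for its regulators, cytokines, receptor partners and surface markers. Among cytokines, Il17f, a close relative of Il17a, had 0 in all 5 libraries, and Il22, which acts on epithelia, had 2 counts in HCC 2 and 0 elsewhere. Of the 30 genes 3 had no read in any library (Il17f, Ccl20 and Il17rc) and 12 had reads in all 5. edgeR tested 14 of them, with 0 called higher and 0 lower, 8 fitted higher and 6 lower, beside 50.3% fitted higher among all genes tested, and a median log2 fold change of 0.07.

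The tested programme genes with the highest mean levels were receptors and factors shared with other lymphocytes. Il21r, the interleukin 21 receptor, was at 174, 246 and 152 CPM in HCC 1, 2 and 3 and at 62.0 and 180.0 CPM in healthy 1 and 2 (log2 fold change 0.53, SE 0.44). Il7r, the interleukin 7 receptor, was at 100.1, 195 and 146 CPM in HCC and at 118 and 112 CPM in healthy libraries (0.15, SE 0.39). Il17ra, the receptor chain shared by several interleukin 17 family cytokines, was at 146, 106 and 126 CPM in HCC and at 122 and 96.6 CPM in healthy libraries (0.00, SE 0.38). The groups overlapped for all 3 receptors.

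Il12rb1, which pairs with Il23r in the interleukin 23 receptor and also serves interleukin 12, was at 21.8, 11.1 and 52.5 CPM in HCC 1, 2 and 3 and at 20.2 and 12.1 CPM in healthy 1 and 2. Its log2 fold change was 0.62 (SE 0.73), with HCC 3 again the high library. Stat3, the signal transducer of the interleukin 23 receptor, was at 13.6, 42.5 and 21.2 CPM in HCC and at 39.6 and 14.3 CPM in healthy libraries (-0.35, SE 0.65), with overlapping groups. Rora, a nuclear receptor also expressed in other lymphocytes, was at 15.2, 20.4 and 26.5 CPM in HCC and at 41.8 and 36.8 CPM in healthy libraries. All 3 HCC libraries lay below both healthy ones for Rora (log2 fold change -1.11, SE 0.48). Its unadjusted p was 0.0442 and its adjusted p 0.9999 in edgeR, so it did not pass. Groups did not overlap for 1 of the 14 tested programme genes, Rora, beside 18.3% of all genes tested.

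**Figure D4:**
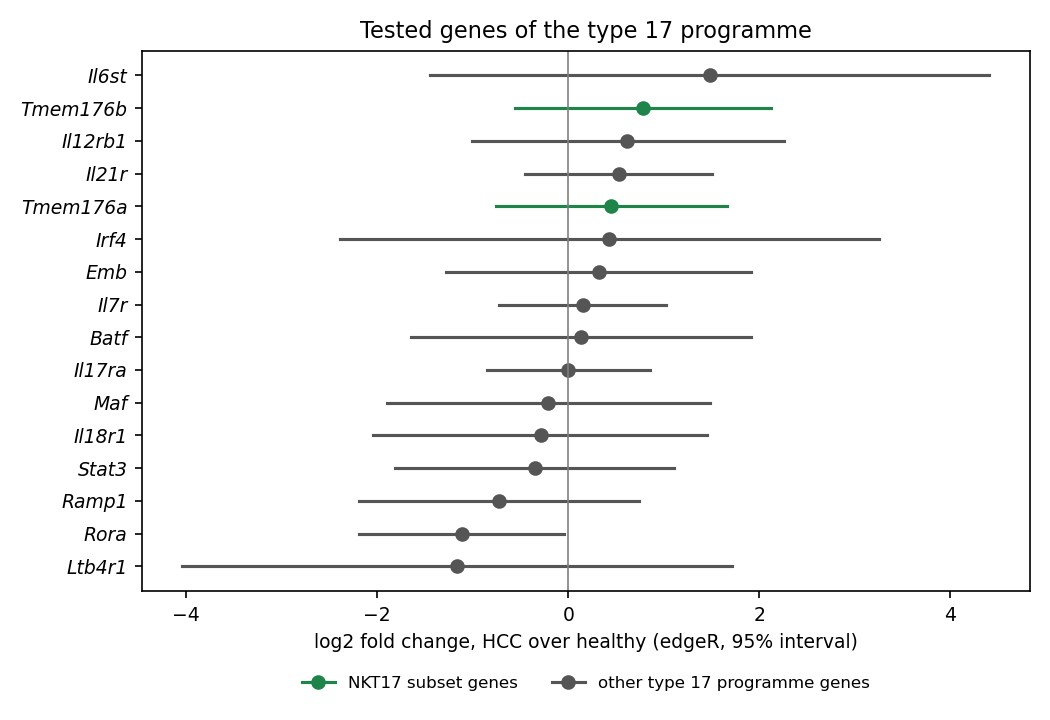
Log2 fold change of HCC over healthy with 95% intervals from edgeR (horizontal axis) for the 2 tested NKT17 genes (green) and the 14 tested genes of the wider type 17 programme (grey). No gene passed at an adjusted p under 0.05, and the interval of Rora alone leaves out 0.

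Genes of the other iNKT subsets are given beside these for scale, without a test of the difference between lists. All 14 genes of an NKT1 list had reads in every library, as had 7 of 10 genes of an NKT2 list, 3 of the 9 NKT17 genes and 6785 of the 21884 protein-coding gene IDs. The count for the NKT17 genes was thus near that of protein-coding genes in general. The NKT1 list summed to 4935, 4290.5 and 3996 CPM in HCC 1, 2 and 3 and to 3367 and 3888 CPM in healthy 1 and 2. The NKT2 list summed to 407, 549.9 and 402 CPM in HCC and to 243 and 454 CPM in healthy libraries. Tbx21, which encodes T-bet, was at 391, 311 and 249 CPM in HCC and at 370.0 and 336 CPM in healthy libraries. Ifng, the interferon gamma gene, had 57, 18 and 17 counts in HCC 1, 2 and 3 and 21 and 30 in healthy 1 and 2. Il4 had 11, 22 and 15 counts in HCC and 3 and 8 in healthy libraries, and Il17a 0 in all. Gata3, the factor linked to interleukin 4, had 112, 103 and 124 counts in HCC and 69 and 99 in healthy libraries. No gene of either list passed in edgeR.

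Several members are also expressed by other cells, Tmem176a and Tmem176b by macrophages, dendritic cells and hepatocytes, Sdc1 by plasma cells and hepatocytes, Ccr6 by B cells and Serpinb1a by neutrophils. Hepatocyte markers summed to 50.6, 229 and 484 CPM in HCC 1, 2 and 3 and to 42.3 and 50.5 CPM in healthy 1 and 2, with reads for 8, 8 and 11 of 12 genes in HCC and for 6 and 10 in healthy libraries. Alb, albumin, was at 7.07, 58.8 and 199 CPM in HCC and at 3.60 and 18.1 CPM in healthy libraries. HCC 3 thus held the highest hepatocyte sum as well as the highest level of the Tmem176 pair. Trf, Fgb and Hp were instead highest in HCC 2, at 67.5, 14.5 and 11.6 CPM. In HCC 3 they were at 50.4, 5.31 and 9.02 CPM. The other genes of the list were highest in HCC 3, except Tat, which was at 0 throughout. The pair summed to 188 CPM in HCC 2, with hepatocyte markers at 229 CPM, and to 195 CPM in healthy 2, with hepatocyte markers at 50.5 CPM. The part of hepatocyte RNA in the level of HCC 3 was not tested.

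Markers of macrophages and Kupffer cells summed to 31.6, 33.8 and 11.1 CPM in HCC 1, 2 and 3 and to 48.1 and 8.78 CPM in healthy 1 and 2, with reads for 9, 1 and 5 of 12 genes in HCC and for 6 and 2 in healthy libraries. The sum was low in HCC 3, which had the highest levels of both Tmem176 genes, and in healthy 2, and it was higher in HCC 2, which had the second highest level of Tmem176b. Of the defining markers, Adgre1 had 5 counts in HCC 1 and 0 elsewhere, and Clec4f 3 in HCC 1, 1 in HCC 3 and 0 elsewhere, while Vsig4 and Timd4 were at 0 in all libraries. Other genes of the list held more reads. Lyz2, lysozyme, had 11, 58 and 10 counts in HCC 1, 2 and 3 and 0 and 14 in healthy 1 and 2, and made up the whole sum of HCC 2. Csf1r, the receptor of macrophage colony-stimulating factor, had 14 counts in HCC 1 and 6 in HCC 3, and 0 in HCC 2 and in both healthy libraries. Marco, a scavenger receptor, had 0 in HCC and 48 and 2 counts in healthy 1 and 2, and C1qa, a complement gene, had 6, 0 and 1 in HCC and 29 and 0 in healthy libraries. The part of macrophage RNA in the levels of the pair was not tested. Of 7 dendritic cell markers 6, including Flt3, were at 0 in every library, and the list summed to at most 1.59 CPM. Neutrophil markers summed to 8.71, 12.8 and 2.12 CPM in HCC and to 0.0 and 1.10 CPM in healthy libraries. S100a8 had 4 and 13 counts and S100a9 10 and 6 counts in HCC 1 and 2, and both had 0 elsewhere, and 6 of the 10 neutrophil genes were at 0 throughout. Serpinb1a had 11 counts in HCC 1, which held reads of S100a8 and S100a9, and 11 in healthy 1, which held none of the 10 neutrophil genes. The part of neutrophil RNA in the Serpinb1a reads was not tested.

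**Figure D5:**
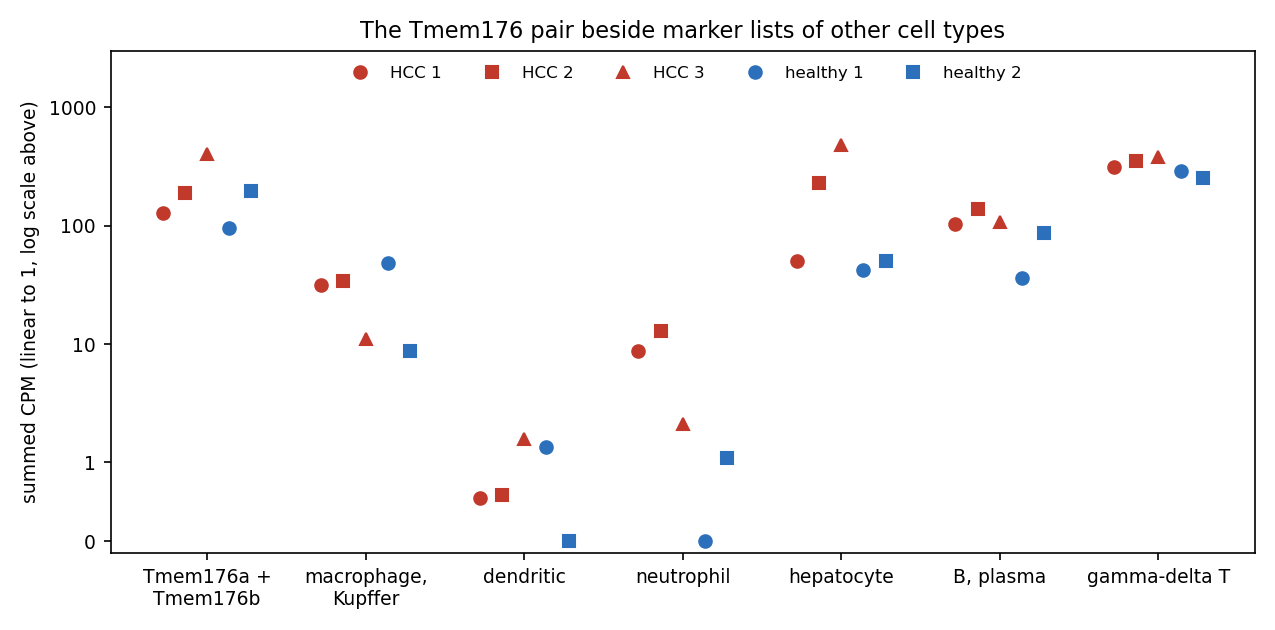
Summed CPM of Tmem176a and Tmem176b and of marker lists of other cell types (vertical axis, linear to 1 and logarithmic above) in HCC (red) and healthy (blue) libraries. The pair and the hepatocyte list are both highest in HCC 3, at 399 and 484 CPM, and dendritic cell markers reach at most 1.59 CPM.

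Markers of B and plasma cells summed to 103, 138 and 108 CPM in HCC 1, 2 and 3 and to 36.0 and 86.2 CPM in healthy 1 and 2, with reads for 3, 7 and 8 of 10 genes in HCC and for 3 and 8 in healthy libraries. HCC 2, the library with Sdc1 reads, had the highest sum. Most counts of the list came from Ighm, an immunoglobulin heavy chain gene, with 188, 169 and 146 in HCC 1, 2 and 3. In healthy 1 and 2 it had 69 and 116. Ighm was highest in HCC 1, at 102 CPM against 98.3 CPM in HCC 2. The plasma cell gene Mzb1 had 0, 21 and 18 counts in HCC 1, 2 and 3 and 0 and 5 in healthy 1 and 2, and Jchain, another, had 1, 0 and 11 counts in HCC and 0 and 2 in healthy libraries. Of the B cell receptor genes, Cd79a had 0, 11 and 0 counts in HCC and 3 and 11 in healthy libraries, and Cd79b 0, 24 and 7 in HCC and 0 and 17 in healthy libraries. Mzb1 and Cd79b were thus highest in HCC 2, whereas Jchain was at 0 there. The part of such cells in the Sdc1 reads was not tested. Gamma-delta T cells, some of which share the type 17 programme, were checked through Trdc. This gene, the constant region of the delta chain, was at 0 in all libraries. The gamma-delta list still summed to 312, 354 and 382 CPM in HCC and to 287 and 250.3 CPM in healthy libraries. Besides 5 counts of 5830411N06Rik in HCC 2 and 4 in healthy 2, these reads came from the gamma constant genes Tcrg-C1, Tcrg-C2 and Tcrg-C4, which alpha-beta T cells can also transcribe. Lists of other cells of liver and blood were also summed. Liver endothelium was at 9.89 to 18.6 CPM in HCC and 9.88 to 43.2 CPM in healthy libraries (Stab2 at 0), stellate cells and fibroblasts at 4.35 to 28.5 and 1.65 to 7.19 CPM (Dcn with 8 counts in HCC 2 and 1 in HCC 3), and cholangiocytes at 0.582 to 3.72 and 1.10 to 2.25 CPM (Krt19 at 0). Erythroid genes summed to 7391, 17083 and 15384 CPM in HCC 1, 2 and 3 and to 2975 and 2787 CPM in healthy 1 and 2, without overlap, and Hbb-bs, a beta globin, was at 1333, 3683 and 1961 CPM in HCC and at 241 and 478 CPM in healthy libraries. The part of erythroid RNA in the levels of the members was not tested.

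Tmem176a was the member with the highest mean level, at 103 CPM over the 5 libraries, and the genes most like it in pattern were found by comparing shares. For each gene the level in each library was written as a share of its sum over the 5 libraries, and the distance between genes is 0.5 of the summed absolute difference in shares, from 0 for the same pattern to 1. Tmem176a had 14.1, 14.3 and 40.8% of its level in HCC 1, 2 and 3 and 12.7 and 18.2% in healthy 1 and 2. Genes without a symbol and those with Gm, Rik or -ps names were left out. Among the other 4852 genes tested whose mean reached 10 CPM, the 5 nearest included Cdk2ap1 (distance 0.0262), Flot2 (0.0413), Stx7 (0.0508) and Anapc2 (0.0522). The median distance was 0.254. Cdk2ap1, for example, was at 24.5, 24.4 and 62.6 CPM in HCC and at 22.5 and 30.2 CPM in healthy libraries. Tmem176b was 75th in this order, at 0.116. HCC 3 was the highest library, by any margin, for 16.8% of all genes tested, which is under an even split over the 5 libraries. How often other genes peak there as strongly was not counted.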

How the data were processed

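The authors deposited for each library a table of counts that are whole numbers, not normalized, by Ensembl gene ID. Per the labels' protocols sorting followed a Percoll gradient and red cell lysis, and libraries made with a QuantSeq 3' kit for Ion Torrent. The submitters' processing notes give the build mm10 and, with no roles, the aligners Bowtie2 and HISAT2, bcl2fastq, and the packages limma, edgeR, DESeq2 and DESeq. How reads were counted, and whether by strand, is not given in the sources used here. Pseudogene rows held 31.7 to 38.5% of the counts. Symbols and positions came from GENCODE M21, which matched 55104 of the 55364 IDs.

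Counts were tested in R 4.3.3 with edgeR 4.0.16 (filterByExpr with a minimum count of 10, TMM on the table totals, quasi-likelihood F test, Benjamini-Hochberg adjustment over all genes tested, threshold 0.05). The SE was taken from the fold change and its F statistic, and intervals use the degrees of freedom of the fit. The code was tested on simulated data. DESeq2 1.42.0, limma-voom (limma 3.58.1), other scalings and filters, protein-coding genes only, HCC 2 and 3 summed, the replicate number as a block, and leaving out each library were alternatives.

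The 9 genes, the lists, the tests and most alternatives were chosen with earlier results of these data known. Named genes were the 9 members, Il17f, Il22 and the 6 tested programme genes with the highest mean CPM, defining markers of each list, and the 5 genes nearest to the top member. Some genes that this rule names are not reported here. Genes outside this rule (Vsig4, Timd4, Lyz2, Csf1r, Marco, C1qa, Mzb1, Cd79b, S100a9, Ccl20, Il17rc, 5830411N06Rik and the gamma constant genes) were named after their values were seen. So were Ighm, Trf, Fgb, Hp and Tat.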

Additional observations from a re-analysis of the deposited data

How the results depend on the processing

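The log2 fold change of Tmem176b stayed above 0 in all 14 alternatives to the gene test (0.22 to 1.73, adjusted p from 0.163) and that of Tmem176a in 12 of 14 (up to 0.73), and 0 members and 0 programme genes passed in any of them, DESeq2 and limma-voom included. Tmem176a turned to -0.31 without HCC 3 and to -0.31 with the replicate number as a block, where Tmem176b was at 0.32 and the members' median at 0.00. Only HCC 3 has the number 3, so it adds nothing to the group difference in the block fit. Both reversals thus come from HCC 1 and 2 against the healthy libraries. Deviations of same-numbered libraries from their group means correlated at -0.00214 for number 1 and 0.121 for number 2. The deviations of the 2 healthy libraries mirror each other, so these values cannot decide whether same-numbered libraries were paired. The count of called genes, 0 with all libraries, was 3 with the replicate block, 8 with the DESeq2 test, 53 when low counts were not filtered and 0 to 196 when 1 library was left out (196 without healthy 2), and 0 in the other alternatives. The cause was not tested. The members' median was -0.04 to 0.92 with 1 library left out, and the log2 ratio of the summed level 0.15 to 1.28, against 0.61 and 0.71 with all 5. With no filter Serpinb1a had a log2 fold change of -0.15 (SE 1.48). Leaving out HCC 2, an alternative chosen after seeing the data, raised the members without any read from 4 to 5 (Sdc1), and leaving out any other library left 4. Depth limits each of the 7 filtered members, at 11 counts or fewer per library.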
